A study of Mus musculus with 2 samples.

Results

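The 10 genes described here encode the insulin-like growth factors and the proteins that carry their signal towards protein synthesis: Igf1, Igf2, Igf1r, Igfbp3, Igfbp4, Igfbp5, Irs1, Irs2, Rps6kb1 and Eif4ebp1. They were chosen by name, as 10 of the 27466 genes with a probe on the array, and 9 of them were measured on both arrays, among 13654 genes in all. The tissue was the tibialis anterior of adult male C57BL/6 mice, a muscle at the front of the shin made mainly of fast fibres. The control group was 1 sample of genotype control, and the N2ICD group was 1 sample of the line named N2ICD-mTG, which carries activated Notch2 (its intracellular domain) as a transgene. No treatment is named for either group. The promoter that drives the transgene, the founder line and any pooling of animals are not given in the sources used here. The series title ties Notch2 in myofibres to muscle mass and fibre type, and growth signalling bears on the first of these.

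Insulin-like growth factors reach muscle from the blood and are also made within it. They bind the receptor encoded by Igf1r, which phosphorylates the docking proteins Irs1 and Irs2, and these recruit phosphoinositide 3-kinase and thereby Akt. Akt relieves the brake that the TSC complex puts on mTOR complex 1, and that complex phosphorylates the S6 kinase encoded by Rps6kb1 and the translation repressor encoded by Eif4ebp1. Binding proteins hold the ligands in blood and matrix and set how much of them reaches the receptor. Much of this pathway is regulated by phosphorylation, which the arrays did not measure. All values below are transcript levels.

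Of these genes, Eif4ebp1 and Rps6kb1 read higher in the N2ICD sample, at 1.63-fold and 1.54-fold, and Igfbp4 read lower, at 1.59-fold. The Rps6kb1 value is a mean over 3 probes that were 1.13-fold, 1.52-fold and 2.14-fold higher, the first within 2 SD of the spot noise. Irs1 and Irs2 read lower by smaller amounts, 1.44-fold and 1.24-fold, and Igf1r read 1.26-fold higher. Igfbp3 and Igfbp5 differed by less than 2 SD of the spot noise. Igf1 gave no single answer, since 1 of its 5 probes was 2.72-fold higher while the others lay near 0 or lower. Igf2 was well above background in the control sample alone. No gene-level value reached 2-fold.

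Each value is a log2 difference, N2ICD minus control, between spot intensities scaled to the 75th percentile of each array. With 1 array per group there was no replicate check and no test, and genotype, animal, dissection and array cannot be told apart. Spots of the same probe printed more than once gave a technical noise of 0.14 (SD of the log2 difference, 268 probes). It ran from 0.25 among the 67 dimmest of them to 0.05 among the 67 brightest. This noise is between spots within the same arrays. It holds nothing of the spread between animals, RNA preparations, labellings or arrays, nor of the choice of scale. Of 59305 spots, the control array had 24916 well above background and the other array 24982, with 0 saturated. The Notch2 probe at transcript position 7448 gave a signal of 6.01 in the control, not well above background, and 221 in the N2ICD sample, whereas the probe at position 10129 gave 189 and 179. Hes1, a Notch target, gave 55.4 and 348 (log2 difference 2.48). The defining transcripts of muscle fibres were all measured, 10 of 10, with a median of -0.14 and a summed scaled level of 12146 in the control and 11086 in the N2ICD sample. In bulk muscle, fewer cells of a type and less RNA per cell cannot be told apart.

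The 10 genes were read by 19 probes of 60 bases on 24 spots, of which 16 probes were measured on both arrays, 2 on neither and 1 on the control array alone. Igf1 and Rps6kb1 are read by several probes that gave different answers, so it matters which stretch of transcript each one reads. The sequences below are the first 30 bases, 5′ to 3′, of the probes on which the results turn, as deposited, with the position at which the probe starts in its transcript. For Igf1, all on the plus strand of chromosome 10 in build mm9, capitals mark the bases that the probes at 889 and 909 have in common within the stretch shown; the whole probes share 40 bases.
Igf1 at 889, chr10:87393561-87393590: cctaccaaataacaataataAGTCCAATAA
Igf1 at 909, chr10:87393581-87393610: AGTCCAATAAcattacaaagatgggcattt
Igf1 at 1027 of transcript variant 2, chr10:87378456-87378485: aaccattaaaaacatgccaccaagaccttc
Igf1 at 3252, chr10:87395924-87395953: agaaatgtaaatggaataagaggtcagctg
Igf1 at 6909, chr10:87399581-87399610: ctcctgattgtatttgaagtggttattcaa

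For Rps6kb1, on the minus strand of chromosome 11, the probe at position 406 of transcript variant 2 is printed whole because its 60 bases are spread over 1245 bases of genome, chr11:86346290-86347534, and so read across an intron. The others start at 1782 and 5097 of the main transcript. Eif4ebp1 (plus strand of chromosome 8) and Igfbp4 (plus strand of chromosome 11) follow, each read by 1 probe. None of these sequences carries capitals, since they have no stretch in common.
Rps6kb1 at 406 of transcript variant 2: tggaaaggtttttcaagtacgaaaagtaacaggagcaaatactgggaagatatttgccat
Rps6kb1 at 1782, chr11:86316094-86316123: aaagagtcagtgtcattacctggaatgctt
Rps6kb1 at 5097, chr11:86312779-86312808: atagtacttttctcatgtgactcaacacta
Eif4ebp1 at 739, chr8:28385887-28385916: cagcctccggagcacacccatctttcctta
Igfbp4 at 1442, chr11:98913334-98913363: gagaagagaaacctcattcttggagtgaga

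None of the 19 probes shares a run of 20 bases with a probe of another gene on the array. Their GC content ran from 35.0% to 55.0%, against a median of 43.3% over all probes. Exon and UTR annotation of mm9 was not used here, so beyond the intron noted for Rps6kb1 the position in the transcript is the only location given within each gene.

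**Figure D1:**
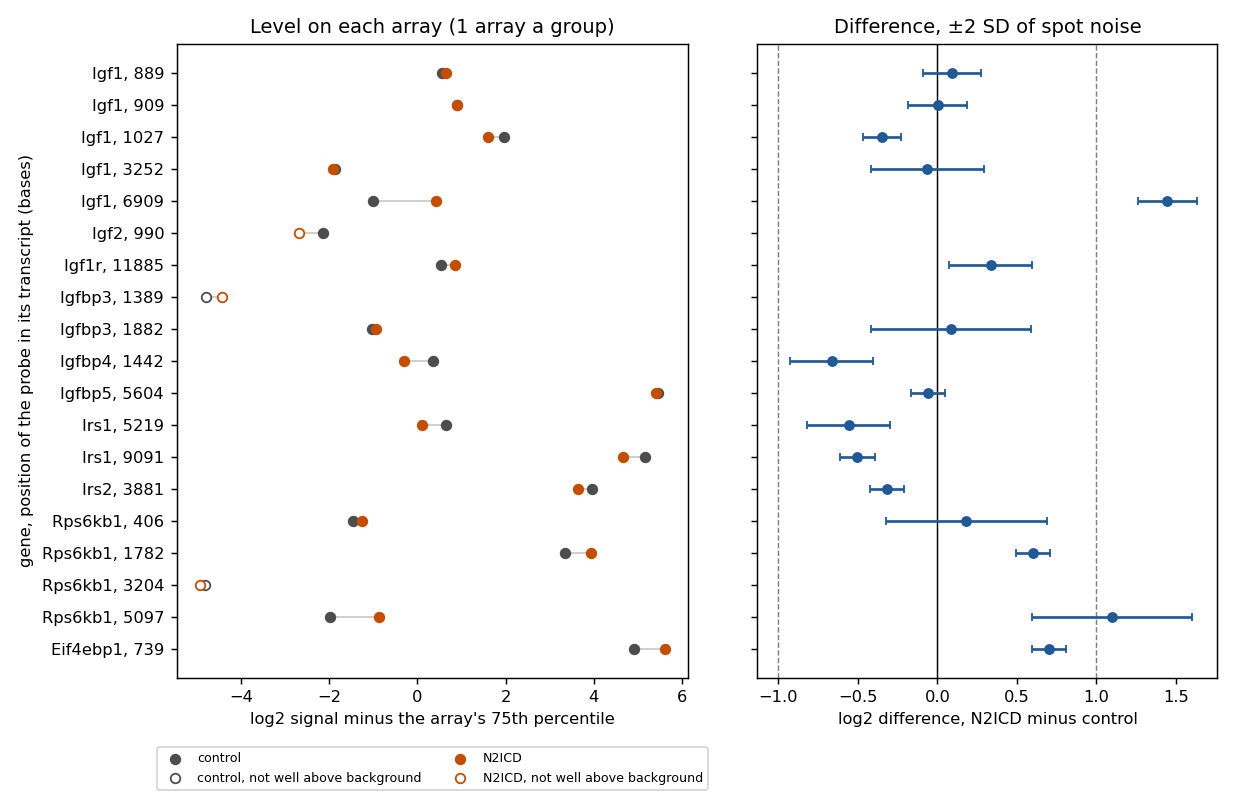
Left, scaled log2 signal of each probe of the 10 genes on the control array (grey) and the N2ICD array (orange), 1 array per group, open where not well above background; right, log2 difference with bars of 2 SD of spot noise and dashed lines at 2-fold. The Igf1 probe at 6909 (1.45) and the Rps6kb1 probe at 5097 (1.097) lie beyond the 2-fold line, and levels of different probes are not comparable with each other.

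The ligand gene Igf1, the main growth factor of postnatal muscle, was read by 5 probes with 2 spots each. At position 6909 (chr10:87399581-87399640) the control spots gave 84.2 and 82.8 and the N2ICD spots 270 and 243. Both N2ICD spots were far above both control spots, and the log2 difference was 1.45, or 1.51 and 1.38 for the separate spot pairs. With normexp background correction in place of the processed signal, this difference was 0.93, short of 2-fold. That correction was run with an offset of 50 added to every signal, which shrinks the log2 differences of dim probes.

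The other Igf1 probes did not share that difference. At position 889 (chr10:87393561-87393620) the control spots gave 233 and 266 and the N2ICD spots 306 and 292, a log2 difference of 0.09 after scaling. At position 909 (chr10:87393581-87393640) the spots gave 304 and 323 in the control and 335 and 373 in the N2ICD sample, a difference of 0.0010. These overlapping probes read nearly the same stretch and are not independent of each other. At position 3252 (chr10:87395924-87395983) the control spots gave 48.9 and 44.1 and the N2ICD spots 53.0 and 47.3, a difference of -0.06. All of these lay within 2 SD of the spot noise.

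The probe at position 1027 of transcript variant 2 (chr10:87378456-87378515) lies upstream of the other Igf1 probes on the chromosome and read lower in the N2ICD sample. Its control spots gave 714 and 600 and its N2ICD spots 588 and 573, a difference of -0.35, or -0.45 and -0.24 for the separate pairs. Averaged over the 5 probes, Igf1 differed by 0.23 with an SD of 0.70 among probes. Without the probe at 6909 the average was -0.08, and the brightest probe alone gave -0.35. The sign of the gene-level value therefore rested on a single probe.

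The spread among probes of a gene was set beside that of other genes. Among 547 genes with 3 or more measured probes, the range from the lowest to the highest probe had a median of 0.33, and 34 genes (6.22%) had a range of at least 1. For Igf1 the range was 1.79, reached by 2 of the 547 genes (0.366%), Igf1 included. For Rps6kb1 it was 0.91, reached by 50 (9.14%). A range grows with the number of probes, and among the 26 genes with 5 or more measured probes, as Igf1 has, the median range was 0.45, 4 genes had a range of at least 1, and Igf1 alone reached 1.79.

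Igf2, the growth factor of fetal tissue and of regenerating muscle, was read by 1 probe (position 990, chr7:149839661-149839720, minus strand). Its signal was 38.1 in the control and 29.3 in the N2ICD sample, where it was not well above background. After scaling, Igf2 read 1.46-fold lower in the N2ICD sample, a difference of -0.55 with a spot noise of 0.25. This is the difference between the readings and not a minimum. Both readings were close to the lowest signals that counted as well above background, 25.4 in the control and 27.1 in the N2ICD sample. The antisense transcript Igf2os gave 20.6 and 20.4 and was not well above background in either. Ins2, an insulin gene next to Igf2 on chromosome 7, gave 125 and 99.4 with 1 probe. Its difference of -0.50 lay just within 2 SD of the spot noise of probes as dim (SD 0.25).

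Igf1r, the receptor tyrosine kinase for both factors, was read by 1 probe near the end of its long transcript (position 11885, chr7:75378461-75378520, plus strand). The signal was 244 in the control and 346 in the N2ICD sample, a log2 difference of 0.33 with a spot noise of 0.13. Igf2r, the decoy receptor that clears Igf2, differed by 0.22. The insulin receptor Insr averaged -0.09, but its 3 probes ran from -0.54 to 0.49.

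Among the binding proteins, Igfbp4, which keeps ligand from the receptor until a protease cuts it, gave the lowest value of the 9 measured genes. Its probe (position 1442, chr11:98913334-98913393, plus strand) gave 217 in the control and 154 in the N2ICD sample, a difference of -0.66. It stood at percentile 3.43 of all measured genes. With normexp correction the difference was -0.48, under 1.5-fold. The protease of Igfbp4, encoded by Pappa, was not well above background in either sample.

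Igfbp5, which binds both ligands and matrix, gave 7463 and 8075 (position 5604, chr1:72904829-72904888, minus strand). After scaling this was a difference of -0.06, and its sign turned with median scaling and with scaling to the spike-in spots. Igfbp3, the main carrier of these factors in blood, gave 82.8 and 98.9 (position 1882, chr11:7106594-7106653, minus strand), a difference of 0.08. A further Igfbp3 probe at position 1389 gave 6.01 and 8.81 and was not well above background in either sample. Neither of these binding proteins differed beyond 2 SD of spot noise.

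Irs1, the docking protein through which the receptor reaches phosphoinositide 3-kinase in muscle, was read by 2 probes that gave nearly the same difference. The probe at position 5219 (chr1:82233564-82233623, minus strand) gave 267 in the control and 204 in the N2ICD sample, a difference of -0.56. The probe at position 9091 (chr1:82229692-82229751) gave 6054 and 4814, a difference of -0.50. Both were lower in the N2ICD sample by more than 2 SD of spot noise, and their mean was -0.53. Irs2, its close relative, was read by 1 probe (position 3881, chr8:11004490-11004549, minus strand), which gave 2649 and 2398, a difference of -0.32 with a spot noise of 0.05. Scaling to the spike-in spots brought Irs1 to -0.0081 and turned Irs2 to 0.21.

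Rps6kb1 encodes the S6 kinase that mTOR complex 1 activates and that phosphorylates ribosomal protein S6. The probe at position 1782 (chr11:86316064-86316123) gave 1719 in the control and 2939 in the N2ICD sample, a difference of 0.60 with a spot noise of 0.05. At position 5097 (chr11:86312749-86312808) the signals were 42.9 and 103, a difference of 1.097. The probe across the intron, at position 406 of transcript variant 2, gave 61.7 and 78.9, a difference of 0.18 that lay within 2 SD of spot noise. All 3 measured probes were higher in the N2ICD sample, by unequal amounts.

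The Rps6kb1 mean over probes was 0.63, and without the probe at 5097 it was 0.39. With normexp correction and its offset the probe at 5097 gave 0.46 and the mean 0.37, so that neither fold held. A further probe at position 3204 of transcript variant 2 gave 5.93 and 6.22 and was not well above background. Rnft1 lies on the opposite strand beside the end of Rps6kb1. One Rnft1 probe gave 261 and 414 (0.49), and another, at chr11:86312391-86312450, gave 5.24 and 14.0, not well above background in either sample.

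Eif4ebp1 encodes 4E-BP1, which holds the cap-binding protein eIF4E until mTOR complex 1 phosphorylates it. Its probe (position 739, chr8:28385887-28385946) gave 5080 in the control and 9314 in the N2ICD sample. The difference of 0.70, with a spot noise of 0.05, was the highest gene-level value of the 9 and stood at percentile 96.6 of all measured genes. It ran from 0.63 to 1.22 under 11 alternatives of processing. Its paralogs differed little, with 6069 and 6528 for Eif4ebp2 (-0.07) and 484 and 505 for Eif4ebp3 (-0.11). The S6 kinase paralog Rps6kb2 averaged -0.04.

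Over the 9 measured genes, 5 lay above 0 and 4 below, with a median of 0.08, against a median of 0.0054 and 50.8% above 0 over all 13654 genes. At 2-fold, 0 of the 9 were called, where 2.31% of all genes were, 194 higher and 121 lower. At 1.5-fold, Eif4ebp1 and Rps6kb1 were called higher, 2 of 9, against 5.08% of all genes, and Igfbp4 lower, 1 of 9, against 4.83%. At 9 genes, each gene makes up a large share of such a count, and with normexp correction 1 of the 9, Eif4ebp1, passed 1.5-fold. Counted by probe, 2 of 16 measured probes passed 2-fold, against 2.43% of 17493 probes of named genes, and 0 did with normexp correction.

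**Figure D2:**
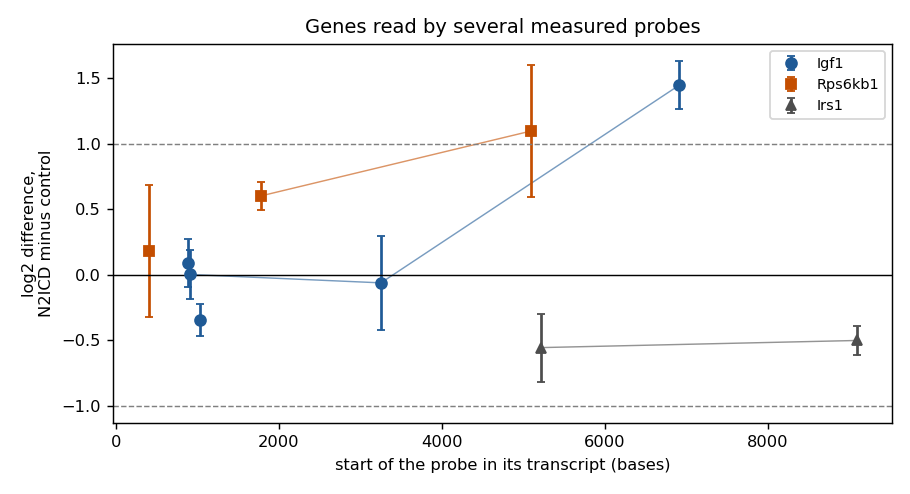
Log2 difference, N2ICD minus control, of each measured probe against its start in the transcript for the 3 genes with several measured probes, with bars of 2 SD of spot noise, lines joining probes of the same transcript and dashed lines at 2-fold. Igf1 ran from -0.35 to 1.45 and Rps6kb1 from 0.18 to 1.097, with the highest value at the probe nearest the transcript's end in each, while the Irs1 probes lay at -0.56 and -0.50.

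In both Igf1 and Rps6kb1 the probe nearest the transcript's end gave the highest difference. The files place these probes in the named genes' transcripts, and whether current gene models hold them was not checked, so the 2-fold values belong to the named genes only as far as the files' annotation goes. From the first to the last measured probe of the same transcript, Igf1 gained 1.36 over 6020 bases and Rps6kb1 0.50 over 3315 bases, while Irs1 gained 0.05 over 3872 bases. Among 1041 transcripts whose first and last probes lay at least 1000 bases apart, the median gain was 0.11 and the middle 95% ran from -0.66 to 0.87. A gain of at least 1, as in Igf1, was seen in 15 of them (1.44%), and a loss of at least 1 in 8. The gain of Rps6kb1 and that of Irs1 lay within the middle 95%. These values describe where on the transcripts the probes differed, and the part of transcript ends, variants or labelling in them was not tested.

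Around the 10 genes, 125 genes of 10 pathway lists were measured, the 9 included. Without the 9, 1 of 116 genes was higher past 2-fold and 1 was lower past it (1.72%, against 2.31% of all genes), 64 lay above 0 and 52 below, and the median was 0.05. The 2 genes past 2-fold were both feedback inhibitors of cytokine and growth hormone receptors. Socs3 gave 599 in the control and 1459 in the N2ICD sample (1.11), and Cish gave 12024 and 6575 (-1.04). Socs3 passed 2-fold under all 11 alternatives of processing, while Cish fell short of it with median scaling (-0.97) and with scaling to the spike-in spots (-0.52). Each was read by 1 measured probe, so other filters on dim and outlier spots and the choice of the brightest probe left both values unchanged. At 1.5-fold, 7 of the 125 genes were called higher and 5 lower, the 3 named above included, against 5.08% and 4.83% of all genes.

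**Figure D3:**
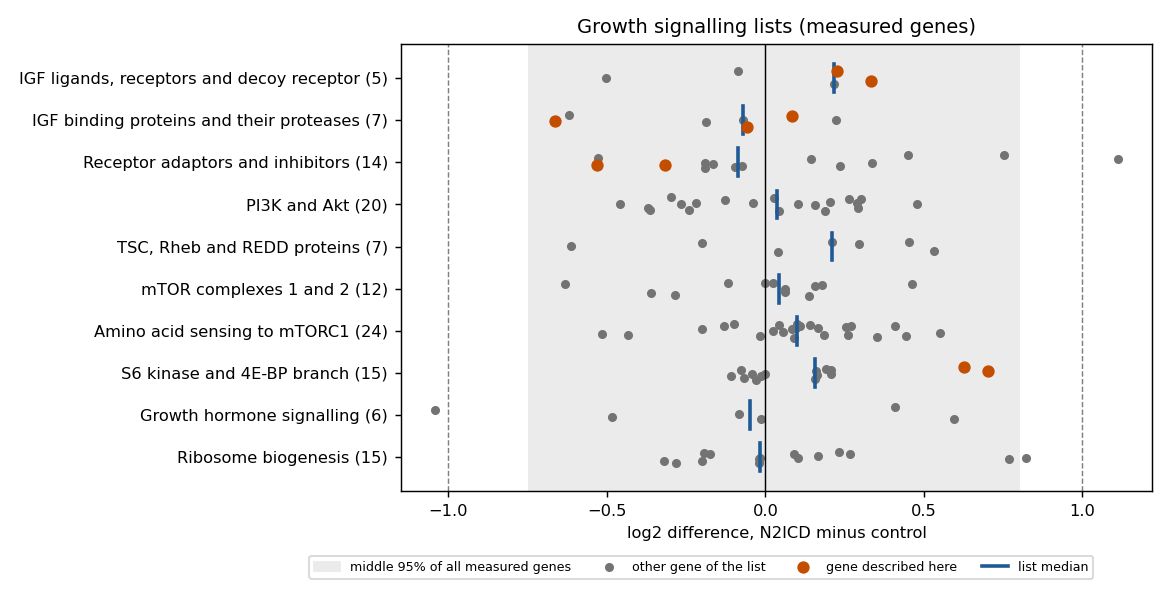
Log2 difference, N2ICD minus control, of every measured gene of the 10 pathway lists (measured genes in brackets), with orange points for the 9 measured genes described here, blue bars for list medians, the middle 95% of all measured genes (-0.75 to 0.80) shaded and dashed lines at 2-fold. Socs3 (1.11) and Cish (-1.04) lie beyond the 2-fold lines, and the list medians lie between -0.09 and 0.22.

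Upstream in the pathway, 5 of 8 ligand and receptor genes were measured, 3 above 0 and 2 below, from Ins2 (-0.50) to Igf1r (0.33), with a median of 0.22. Of the binding proteins and their proteases, 7 of 13 were measured, 2 above 0 and 5 below, from Igfbp4 (-0.66) to Igfbp7 (0.22), with a median of -0.07. The list of growth hormone signalling, which drives Igf1 in liver and muscle, had 6 of 6 measured, from Cish to the kinase Jak2 (0.59), with a median of -0.05. The receptor adaptors and inhibitors had 14 of 14 measured, 6 above 0 and 8 below, from Irs1 (-0.53) to Socs3, with a median of -0.09. Each of these lists held values on both sides of 0.

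Midway, the 20 of 21 measured genes of phosphoinositide 3-kinase and Akt signalling had a median of 0.04, from the regulatory subunit Pik3r3 (-0.46) to the catalytic subunit Pik3cb (0.48). All 7 genes of the TSC, Rheb and REDD list were measured, 5 above 0, with a median of 0.21. Ddit4l, an inhibitor of mTOR complex 1 that is abundant in muscle, gave 4161 and 3062 (-0.61), and Tsc2, a subunit of the brake itself, gave 39.7 and 64.6 (0.53). The mTOR complexes had 12 of 12 genes measured and a median of 0.04, with Mtor at 0.14, the inhibitory subunit Deptor at 0.46 and Rictor, which defines mTOR complex 2, lowest at -0.63 (146 and 106). For amino acid sensing, 24 of 27 genes on the array were measured, 18 above 0 and 6 below, with a median of 0.10. The folliculin partners Fnip1 (0.55) and Fnip2 (-0.52) were its highest and lowest.

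Downstream, all 15 genes of the S6 kinase and 4E-BP list were measured, 8 above 0 and 7 below, with a median of 0.16. Eif4ebp1 and Rps6kb1 were the 2 of these past 1.5-fold, and Eif4ebp3 was the lowest. Of 16 ribosome biogenesis genes, 15 were measured, 7 above 0 and 8 below, with a median of -0.02, from the methyltransferase gene Fbl (-0.32) to Dkc1, which encodes the pseudouridine synthase dyskerin, at 0.82 (38.7 and 77.2). No list median passed 0.22 in either direction on this scale.

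Several of these genes are also expressed by cells other than fibres, so the markers of other cell types stand beside them. Fibroblast markers were measured for 10 of 10 genes, with a median of 0.02 and a summed scaled level of 614 in the control and 502 in the N2ICD sample. Of these markers, 5 lay above 0 and 5 below. Sums such as these are weighted to the brightest probes, here those of Col1a2 (-0.31), Dcn (-0.23) and Col1a1 (-0.41). Endothelial markers, 10 of 10, had a median of -0.20 and summed to 64.1 and 56.2, and smooth muscle and pericyte markers, 10 of 10, had a median of 0.01 and summed to 81.0 and 80.8. Macrophage and leukocyte markers were measured for 7 of 10 genes on the array, had a median of -0.25 with Csf1r lowest at -0.61, and summed to 9.88 and 7.82. Ptprc, Cd163 and Fcgr1 were not well above background in either sample. Adipocyte markers, 7 of 8, had a median of -0.08 and summed to 48.8 and 56.5, with Lep not well above background. Satellite cell markers, 8 of 10, had a median of 0.34, 6 above 0 and 2 below, and summed to 63.9 and 162. Itga7, which muscle fibres also express, had the highest level of these markers (scaled log2 level 5.65 and 7.14) and made up most of both sums. Itga7 differed by 1.49, Sdc4 by 0.86, Cdh15 by 0.73, Chrdl2 by 0.53, Pax7 by 0.14 and Fgfr4 by 0.09. Megf10 (-0.23) and Vcam1 (-0.31) were lower, and Myf5 and Calcr were not well above background. The part of cell makeup in the values of the IGF genes was not tested.

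Notch2 acts in the nucleus through the DNA-binding protein RBPJ, so the promoters of the genes were searched for its core motif GTGGGAA, and for the motif TGTTTAC of the FOXO factors that Akt inhibits, on both strands. Promoters were RefSeq windows from 250 bases before to 50 after the start on GRCm38.p6, 300 bases each, and 9 of the 10 genes had at least 1. The RBPJ motif stood in 1 of the 9, Igf2, at position -48 of 1 of its 4 promoters (window chr7:142666767-142667066, minus strand), against 7.25% of 27025 genes and 6.38% of 32851 promoters. No FOXO motif was found in the 9, against 4.05% of genes and 3.65% of promoters. A match of letters is a description of the sequence and not evidence of a site in use. The stretch in Igf2, with the motif in capitals, reads as follows.
Igf2 promoter: gtgtgaatgggGTGGGAAgcagctagagag

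**Figure D4:**
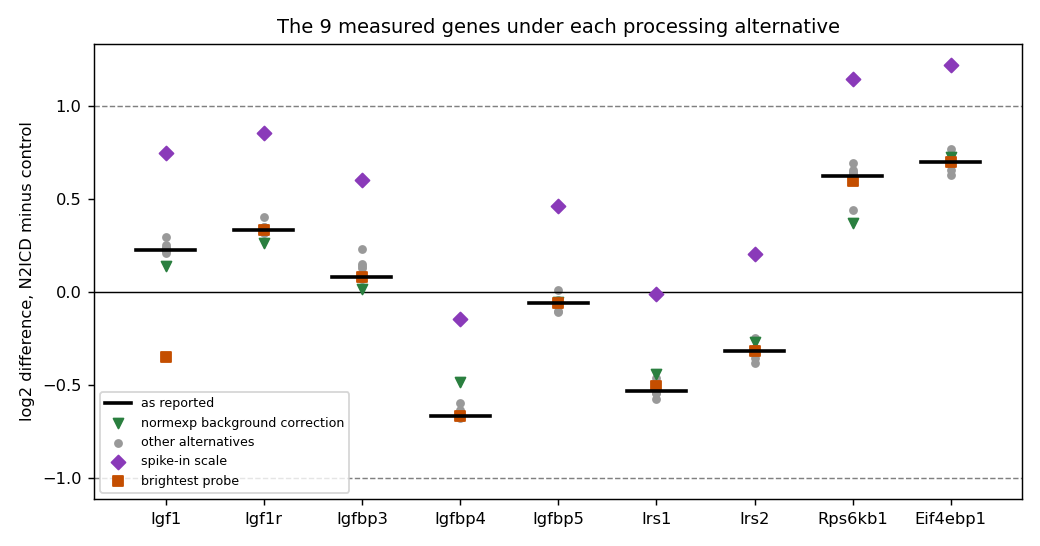
Log2 difference, N2ICD minus control, of the 9 measured genes with the processing used here (black bars) and under 11 alternatives, with dashed lines at 2-fold. Scaling to the spike-in spots (purple) moved every gene up by about the shift of all genes, 0.52, and the brightest probe (orange) placed Igf1 at -0.35.

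The scale between the arrays matters for the direction of the smaller differences. Setting it by 7 spike-in probes moved the median of all genes by 0.52, so that Eif4ebp1 read 1.22, Rps6kb1 1.15, Igf1r 0.86, Igfbp4 -0.14 and Irs1 -0.0081. The order of the genes did not depend on that constant. Eif4ebp1, Rps6kb1, Igf1r and Igfbp3 stayed above 0, and Igfbp4 and Irs1 below it, under all 11 alternatives. Some of these alternatives left the probes and the scale of a gene unchanged and could not move its value. In the authors' deposited table, the 16 measured probes had the same direction as here, with folds of 2.753 up for the Igf1 probe at 6909, 2.162 up for the Rps6kb1 probe at 5097, 1.644 up for Eif4ebp1 and 1.569 down for Igfbp4. That table comes from the same arrays, so the shared direction is no independent check.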

How the data were processed

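Total RNA of 1 control and 1 N2ICD sample of tibialis anterior was labelled with Cy3 and read on 1 array each, per the labels' protocols. The authors deposited spot intensity values from Agilent Feature Extraction 10.10.1.1, background-subtracted within each array, with probes on mm9, per the file headers, and a table of fold (ratio) values per probe with log2 levels per array, for which the sources used here give no method.

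From each log2 processed signal the 75th percentile of that array was subtracted (signals of 169 and 190). After 215 spots flagged as outliers were left out, spots were averaged into 55672 probes. Gene values are means over probes that both arrays show well above background. Where 1 array does, a fold is given against the lowest level well above background on the other array. The difference itself is given where the dim reading lies above the lowest level well above background. Names of 1900 of 31161 spots matched by accession were updated through a GRCm38.p6 table. No test was possible with 1 array per group, and called means past the stated fold. The genes, the lists and the alternatives were chosen with earlier results of these data known. Named genes were all 10 members with every probe and, per list, each gene past 2-fold and the highest and lowest. Igf2r, Insr, Mtor, Eif4ebp2, Rps6kb2, Igf2os, Rnft1, the cell markers singled out, and those in the closing observations were chosen after their values were seen, as were the alternatives without the highest probe of Igf1 or Rps6kb1. Alternatives were normexp (offset 50), median, quantile, loess, spike-in and a restricted percentile scaling, other filters on dim and outlier spots, the brightest probe, the authors' deposited folds and a 1.5-fold threshold. Steps were tested on simulated data with changes past 2-fold only, so this does not bear on the smaller differences reported here. Analyses used R 4.3.3 with limma 3.58.1, and Python 3.11.15 with pandas 2.3.3, numpy 2.4.6 and matplotlib 3.10.9.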

Additional observations from a re-analysis of the deposited data

How the results depend on the processing

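Results changed mainly with the scale between arrays and with normexp background correction, whose added offset of 50 shrinks the log2 differences of dim probes. With the spike-in scale, 2 of the 9 genes and 4 of their probes passed 2-fold (0 and 2 as reported), the median of the 9 was 0.61, 9 pathway genes passed 2-fold (2 as reported), and Irs2 turned to 0.21. That scale gave 1059 genes higher and 22 lower at 2-fold over the array, against 194 and 121. Normexp correction left 0 of the probes past 2-fold and gave 81 genes higher and 43 lower. Median scaling left 1 pathway gene past 2-fold, Socs3, without Cish. At 1.5-fold, 3 of the 9 genes and, with them, 12 of 125 pathway genes were called. Keeping each probe that passed on either array gave 364 genes higher and 328 lower, and no filter 835 and 968. How much of the normexp change came from the offset, and the causes of the other changes, were not tested. Of the values of single genes, probes and lists under alternatives, 201 moved by less than the overall spot noise (SD 0.14), and 31 others and Irs2 by more. Some of the 201 could not move, since the alternative left their probes and scale unchanged. Whatever the size of the move, 18 values took another sign or came to 0, 5 for genes and 13 for list medians: Igf1 with its brightest probe alone (-0.35) and without its highest probe (-0.08), Igfbp5 with median (0.01) and spike-in (0.46) scaling, Irs2 as above, and medians of 7 lists.

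Dim signals limit what Igf2, Igfbp3 and the Rps6kb1 probe at 5097 can show. No paired analysis was possible because each group has 1 sample.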

Other observations

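Other genes around the pathway lay at the edges of their lists. Igfals, whose product binds the complex of IGF and carrier in blood, differed by -0.62 between N2ICD and control, next to Igfbp4 in its list. Grb10, an adaptor that inhibits the insulin and IGF receptors, differed by -0.53, the value also seen for Irs1. The adaptor gene Sh2b2 differed by 0.75 and the nucleolar protein gene Nop58 by 0.77. The growth hormone receptor Ghr averaged 0.41, with its 2 probes at 0.12 and 0.70. Genes well above background on 1 array alone went in either direction. Stc2, an inhibitor of the Igfbp4 protease, gave 38.7 with N2ICD against 20.8 in the control, and the arginine sensor Castor1 gave 38.2 against 24.2. Set against the lowest control signal well above background, these were 1.35-fold and 1.33-fold higher with N2ICD. Slc7a5, of the amino acid sensing list, went the other way. A probe of Slc7a5 read 1.69-fold lower with N2ICD, a difference between readings and not a minimum. Another Slc7a5 probe gave 29.5 in the control and 23.5 with N2ICD, 1.22-fold lower when set against the lowest N2ICD signal well above background. A dim probe can read above that lowest signal and still not be well above background. The folds of Stc2, Castor1 and this probe are therefore not minimums. In log2 they were 0.43, 0.41 and 0.29, each less than 2 SD of the spot noise among the dimmest probes (SD 0.25). Igf2, also lower, is described above. Each is read on 1 array per group.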
